A study of Mus musculus with 192 samples.

Results

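Among cells that had reached skin wounds from a joined donor mouse, 67 detected Ptprc without a high collagen signal, and these 67 cells are described here. They were chosen by Ct, the cycle at which a quantitative PCR reaction crosses its threshold: a lower Ct is a higher level, 1 cycle is about one doubling, and 40 was read as not detected. A cell was a member when it detected at least 10 of the 96 assays, detected Ptprc, had Col1a1 at Ct 16 or later (or not detected), and detected fewer than 4 of Pecam1, Cdh5, Kdr, Flt1, Tie1 and Tek. The members were 67 of the 170 cells that met the minimum of 10 assays, and of the 192 cells deposited.

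Recipient mice were either wild type (WT) or lacked the chemokine Cxcl12 in their endothelium (EKO), per the labels and the series' design text. Every recipient shared its circulation, through surgical joining (parabiosis), with a donor mouse positive for green fluorescent protein (GFP). Cells were taken directly from wounds on the back and sorted as lineage-negative and GFP-positive, so all cells of both groups are labelled as donor cells and the genotype is that of the recipient. The design text mentions wounds on EKO recipients, and the labels give dorsal wounds as the source of all cells. Each of the 2 sets, A and B, holds 48 cells per genotype. Not given in the sources used here are the promoter that drives the deletion, the lineage antigens, the time since wounding, and the number and age of the mice.

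Ptprc encodes CD45, a phosphatase found on the surface of nearly all nucleated blood cells and rare elsewhere. After wounding, CD45-positive cells enter the skin from the blood, drawn by chemokines such as Ccl2, the ligand of Ccr2, and Cxcl12, the ligand of Cxcr4. Some mature into macrophages that clear debris and release growth factors. A lineage-negative gate is meant to remove mature blood cells, so CD45-positive cells that pass it can include blood progenitors as well as cells that the gate did not cover.

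Since the labels name no mouse, each genotype is 1 sample, cells are not replicates of it, and no difference below was tested. Shares of cells carry exact Clopper-Pearson 95% intervals, differences of shares carry Newcombe 95% intervals, and both cover counting error among cells only. WT cells hold positions 1 to 48 and EKO cells positions 49 to 96 in each set, so genotype and position cannot be told apart. The number of assays that a cell detects is here called its depth. It ran from 11 to 47 in members, with a median of 26.

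The rule used Ptprc, Col1a1, the endothelial genes and the number of assays, and their values describe the choice. Ptprc Ct ran from 12.9 to 20.7 in members, with a median of 17.4 ± 2.12 (SD). All 102 cells that detected Ptprc had at least 11 assays; 31 of them were left out for Col1a1 and the other 4 for endothelial genes, of which they detected 5 or 6. The Ptprc-detecting cell just outside the collagen limit had Col1a1 at Ct 13.6, and the member just inside it at Ct 17.04. Col1a1, the main fibrillar collagen chain, was not detected in 37 members and was late in the other 30, at Ct 21.7 at the latest. No endothelial gene of the rule was detected in 42 members, 1 in 23 members and 2 in the remaining 2, so no member was near that limit.

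Members were divided by Mki67 and Birc5, which are transcribed in dividing cells, and the promoters of both genes are shown because the cycling cells below are defined by these assays alone. Mki67 encodes a protein that coats mitotic chromosomes, and Birc5 encodes survivin, a subunit of the complex that guides chromosomes through division. Each sequence is RefSeq's, on build GRCm38.p6, and covers 250 bases before the start of the gene and 50 after it. Mki67 lies on the minus strand at chr7:135716330-135716629 and Birc5 on the plus strand at chr11:117848987-117849286. Capitals mark TTTGAA, the core of the cell cycle homology region, and CCAAT, the box that the factor NF-Y reads, each searched on both strands (ATTGG is CCAAT read on the other strand).
Mki67: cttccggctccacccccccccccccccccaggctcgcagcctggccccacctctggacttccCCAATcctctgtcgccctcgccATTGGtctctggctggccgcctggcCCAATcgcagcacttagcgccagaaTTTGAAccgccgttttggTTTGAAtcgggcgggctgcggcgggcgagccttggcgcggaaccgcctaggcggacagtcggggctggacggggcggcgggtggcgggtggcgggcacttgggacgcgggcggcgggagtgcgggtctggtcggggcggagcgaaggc
Birc5: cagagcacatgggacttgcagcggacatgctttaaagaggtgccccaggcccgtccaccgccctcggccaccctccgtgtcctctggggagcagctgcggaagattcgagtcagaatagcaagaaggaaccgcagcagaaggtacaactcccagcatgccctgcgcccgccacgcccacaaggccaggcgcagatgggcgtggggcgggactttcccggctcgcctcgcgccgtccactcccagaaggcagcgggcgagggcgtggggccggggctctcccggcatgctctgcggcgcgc
The Mki67 window holds 2 TTTGAA and 3 CCAAT, which do not overlap each other. The Birc5 window holds 0 of either in these letters. Of 32851 RefSeq promoters of the same length, 17.9% hold TTTGAA and 37.4% hold CCAAT.

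Mki67 and Birc5 were detected almost always together. Mki67 was detected in 19 members (28.4%, 95% interval 18.01 to 40.7%) at a median Ct of 16.8 ± 1.41 (SD), from 14.8 to 19.8. Birc5 was detected in 18 members, each of which also detected Mki67, at a median Ct of 15.2 ± 1.13. The 19 members that detected either gene are called cycling below, a word that stands for these assays and not for a measured division, and the other 48 non-cycling. Among the 22 cells left out for detecting fewer than 10 assays, neither gene was detected, which allows a share of up to 13.6%. Among the 31 Ptprc-detecting cells with Col1a1 before Ct 16, Mki67 was detected in 2 and Birc5 in 7, so there Birc5 was the more frequent.

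**Figure D1:**
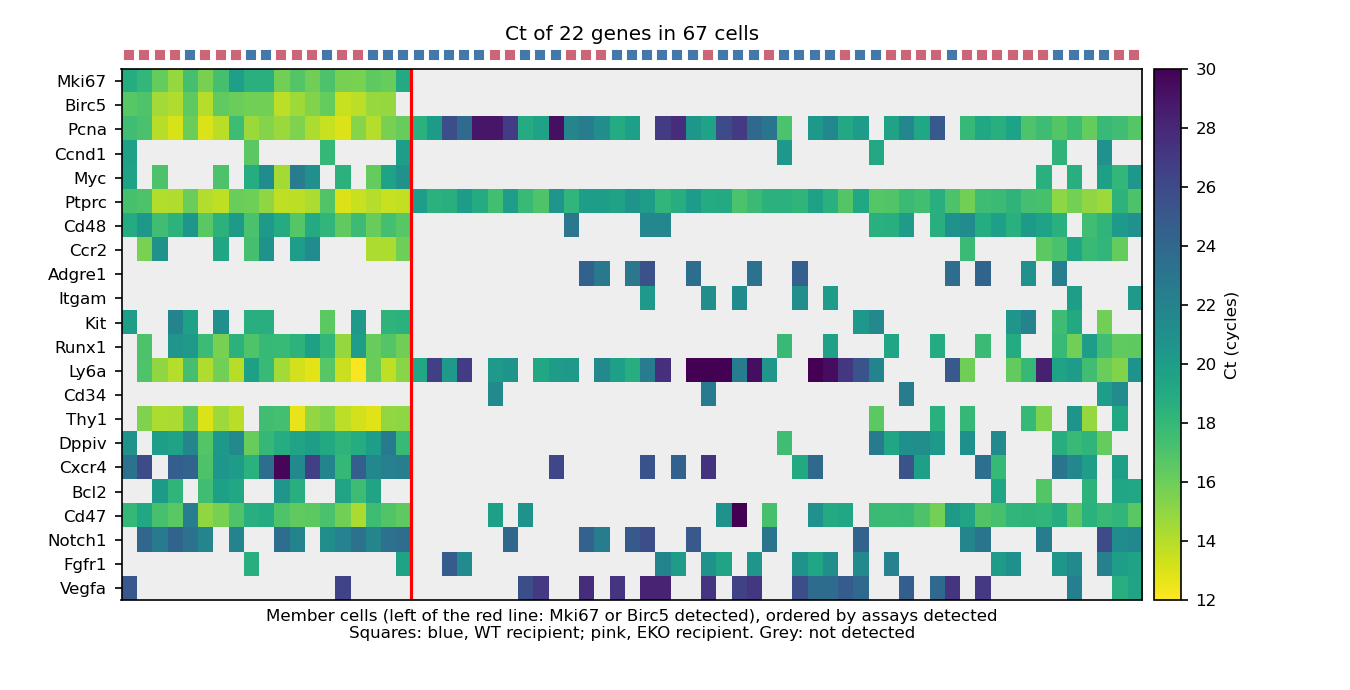
Ct of 22 genes (rows) in the 67 members (columns), with the scale from Ct 12 (yellow, high level) to 30 and later (dark, low level), and grey where a gene was not detected. The 19 members with Mki67 or Birc5 stand left of the red line, each side is ordered by assays detected, and squares give the recipient; Thy1, Cd48 and Cxcr4 are filled on the left, while Adgre1 and Itgam are empty there.

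The genes most often linked to blood cells were detected in part of the members only. Cd48, a surface protein of blood cells that binds the receptor CD244, was detected in 38 of 67 members (56.7%, 44.04 to 68.8%). Cxcr4, the receptor for Cxcl12, was detected in 32 (47.8%, 35.4 to 60.3%) and Ccr2, the receptor for Ccl2 on inflammatory monocytes, in 17 (25.4%, 15.5 to 37.5%). The 68 kept cells that did not detect Ptprc, with a median of 17 assays against 26 in members, serve as the measured background. They detected Cd48 in 8.82%, Cxcr4 in 8.82% and Ccr2 in none of 68 (0), which allows a share of at most 4.41%. All these shares are above that background, but none of the genes marked all the members. Panel genes that define lymphoid cells, granulocytes, erythroid cells or platelets were 0 on the lists used here, so those identities could not be looked at.

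Members differed from the 31 Ptprc-detecting cells of high collagen in depth as well as in genes. The latter detected a median of 53 assays. Ccr2 was detected in 64.5% of them and Cd48 in 64.5%, so neither gene was particular to members. Cd34, a surface protein of blood progenitors, fibroblasts and endothelium, was detected in 5 of 67 members (7.46%) and in 90.3% of the high-collagen cells. Pdgfra, a receptor of connective tissue cells, was detected in 2 members (2.99%) and in all 31 high-collagen cells. Cxcr4 had the opposite order, with 47.8% of members and 41.9% of high-collagen cells, although the members detected fewer assays. Adgre1, a surface receptor typical of mouse macrophages, was detected in 11 members and 0 of the 31, which allows a share of up to 9.68%. Mki67 was detected in 28.4% of members and 6.45% of high-collagen cells, and Birc5 in 26.9 and 22.6%.

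Cycling members were deeper than the rest, and that stands beside each comparison of the 2 classes. They detected 30 to 46 assays each with a median of 37, and non-cycling members 11 to 47 with a median of 21. A share was called when the classes differed by at least 15 percentage points in the same direction in sets A and B, a rule of size that takes the place of a test. Of the 86 assays outside the rules, 24 (27.9%) were called higher in cycling members and 3 (3.49%) lower. In a narrower comparison, chosen after the values had been seen, the 19 cycling members were set against the 9 non-cycling members with at least 30 assays (median 35). There 7 assays (8.14%) were called higher and 4 (4.65%) lower, and the 7 were all among the 24. Of these 9 cells 2 came from set A and 7 from set B, so in this narrower comparison the agreement of the sets rests on 2 cells in set A.

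Thy1, Dppiv and Cxcr4 were called higher in cycling members in both comparisons. Thy1, a surface glycoprotein of T cells, some blood progenitors and fibroblasts, was detected in 17 of 19 cycling members (89.5%, 66.9 to 98.7%) and 8 of 48 non-cycling ones (16.7%, 7.48 to 30.2%). The difference was 72.8 points (48.3 to 83.8), 83.5 within set A and 58.9 within B. Dppiv, the table's own name, which usually stands for a surface peptidase that trims chemokines, was detected in 94.7% of cycling and 25% of non-cycling members. Cxcr4 was detected in 94.7% and 29.2%, a difference of 65.6 points (41.7 to 77.3). Against the 9 deep non-cycling members the difference was 33.9 points for Thy1 (0.92 to 63.8). It was 50.3 points for both Dppiv and Cxcr4 (15.5 to 76.2 for each). The intervals of the separate shares overlapped for each of these genes. Thy1 and Dppiv were not particular to cycling members, since the high-collagen cells, which were deeper, detected them in 100% and 80.6%. Cxcr4 was detected in 41.9% of the high-collagen cells. All of Cd48, Cxcr4, Thy1 and Dppiv were detected in 15 of 19 cycling members and in 1 of 48 non-cycling ones, a combination chosen after the values had been seen.

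Other genes led the list over all members, and most of those named here were not called at matched depth. Runx1, a transcription factor required to form blood stem cells, was detected in 89.5% of cycling and 25% of non-cycling members, and in 77.8% of the 9 deep ones. Cd48 and Pik3r1, the regulatory subunit of phosphoinositide 3-kinase, were each detected in all 19 cycling and 19 of 48 non-cycling members (39.6%). The 9 deep non-cycling members detected Cd48 in 88.9% and Pik3r1 in 100%, so for these genes little of the difference was left. Myc, a growth-promoting transcription factor, was detected in 63.2% of cycling, 10.4% of all non-cycling and 55.6% of the deep non-cycling members. Ctnnb1, beta-catenin, gave 68.4, 16.7 and 66.7%. Itgb3, an integrin subunit of platelets and macrophages, and Notch1, a receptor that sets cell fate, differed by 50.7 and 44.5 points over all members. At matched depth Itgb3 stood at 18.7 points (-17.7 to 49.8, with 4.55 in set A) and Notch1 at 29.2 (-7.36 to 58.6). Both were called higher there too, although both intervals span 0.

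**Figure D2:**
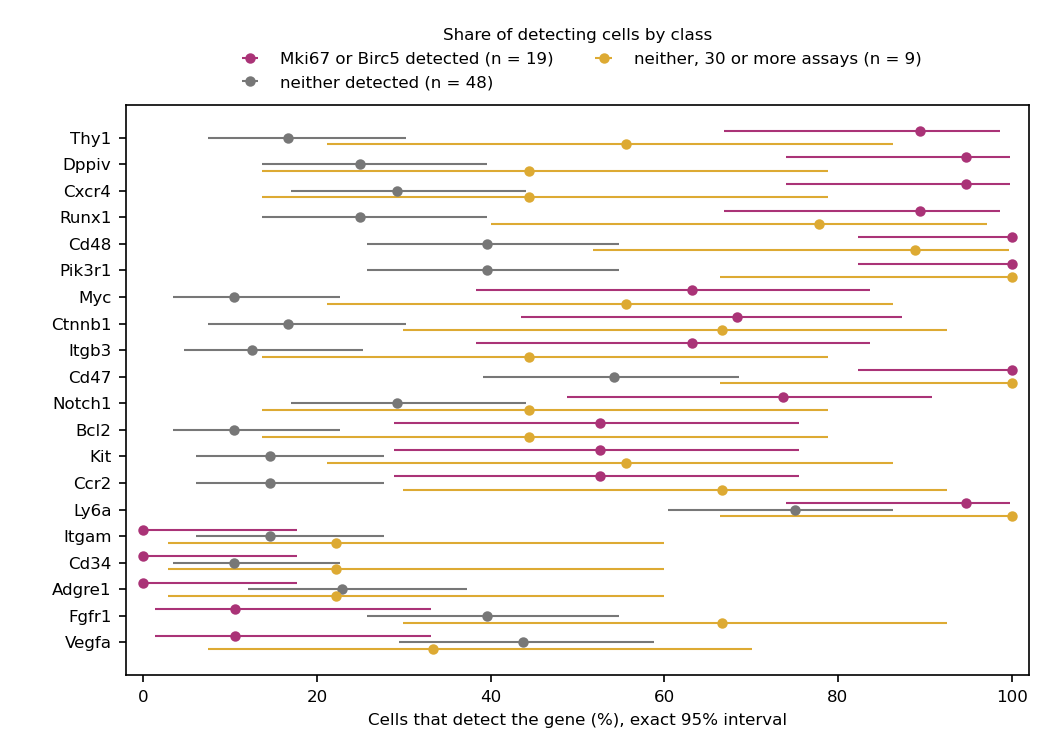
Share of cells that detect each of 20 genes (horizontal axis, percent, with exact 95% intervals) in the 19 members with Mki67 or Birc5, the 48 with neither, and the 9 of these 48 with at least 30 assays. For Thy1, Dppiv and Cxcr4 the cycling interval lies above that of all non-cycling members and overlaps that of the deep ones, whereas Pik3r1 reaches 100% in the deep non-cycling members too.

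Macrophage genes were found outside the cycling members. Adgre1 was detected in 11 of 48 non-cycling members (22.9%, 12.03 to 37.3%) and in 0 of 19 cycling ones, which allows a share of up to 15.8%. Itgam, the integrin subunit CD11b of monocytes, macrophages and granulocytes, was detected in 7 of 48 (14.6%) and 0 of 19. At least 1 of these 2 genes was detected in 16 of 48 non-cycling members (33.3%, 20.4 to 48.4%), a pairing chosen after the values had been seen. Both together were detected in 2 cells. Among the 9 deep non-cycling members 4 detected Adgre1 or Itgam (44.4%, 13.7 to 78.8%). Both signals were late, with a median Ct of 23.5 ± 1.25 for Adgre1 and 20.3 ± 0.63 for Itgam. Over both sets Cxcr4, at 22.7 ± 3.05 in members, was later than Itgam, although its median was 24.5 in set A and 19.9 in set B. Most Adgre1-detecting cells, 9 of 11, came from set A.

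Ccr2 did not follow Adgre1 and Itgam. It was detected in 10 of 19 cycling members (52.6%, 28.9 to 75.6%) and 7 of 48 non-cycling ones (14.6%, 6.07 to 27.8%), and in 66.7% of the 9 deep non-cycling members. At matched depth its difference was -14.0 points, with 4.55 in set A, and was not called. The interval of -43.9 to 23.1 spans 0, so no direction is shown there. Of the 17 members with Ccr2, 16 also detected Cd48, 14 Runx1 and 14 Thy1, and 1 detected Adgre1. Of the 11 members with Adgre1, 5 detected Cd48, 2 Runx1 and 1 Thy1. The 5 measured leukocyte and macrophage genes thus split. Of the 4 outside the rule, 2 were called higher in cycling members, Cd48 and Ccr2, and 1 lower, Adgre1. Over all 86 assays 27.9% were called higher and 3.49% lower. The median difference of the 4 was 11.7 points, beside 1.64 over all 86. At matched depth 0 of the 4 were called higher and 1 lower, beside 8.14% and 4.65% over all 86. Their median was -18.1 points, beside 0 over all 86.

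Of the 7 blood progenitor genes, 4 were called higher in cycling members and 0 lower, with a median difference of 19.7 points, beside 27.9% called higher and 1.64 points over all 86 assays. They were Cd48, Runx1, Kit and Ly6a. Runx1 and Ly6a were not particular to cycling members. The high-collagen cells, which were deeper, detected Runx1 in 96.8% and Ly6a in 100%, against 43.3% and 80.6% of all members. Kit had the opposite order, at 12.9% of high-collagen cells and 25.4% of members. Ly6a was also detected in 85.3% of the kept cells that did not detect Ptprc. Kit, the receptor for stem cell factor, was detected in 52.6% of cycling and 14.6% of non-cycling members. Ly6a, which encodes the stem cell antigen Sca-1, was detected in 94.7% and 75%. At matched depth 0 of the 7 were called, with a median of -5.26 points, and Kit and Ly6a turned to -2.92 and -5.26 points. Cd34 was detected in 0 of 19 cycling members and 5 of 48 non-cycling ones (10.4%). Gata2 and Prom1, a transcription factor and a surface protein of progenitors, were detected in 1 member each, both non-cycling and from EKO recipients.

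The 3 genes called lower in cycling members were Vegfa, Fgfr1 and Adgre1. Vegfa, the main growth factor of blood vessels, was detected in 2 of 19 cycling members (10.5%, 1.30 to 33.1%) and 21 of 48 non-cycling ones (43.8%, 29.5 to 58.8%). Its signal was late, at a median Ct of 25.7 in non-cycling members. Fgfr1, a receptor for fibroblast growth factors, was detected in 10.5 and 39.6%, and in 66.7% of the deep non-cycling members. The differences for Fgfr1 and Adgre1 were called at matched depth too, at -56.1 points (-78.7 to -18.6) and -22.2 points (-54.7 to 0.92). For Adgre1 these were 0 of 19 cycling and 2 of 9 deep non-cycling members, so its interval spans 0. Vegfa stood at -22.8 points (-55.0 to 6.99), with 9.09 in set A, and was not called.

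In detecting cells, levels were compared by the median Ct where each class had at least 8 detecting cells, and called at 1 cycle in the same direction in both sets. Of 24 assays compared, 10 (41.7%) were earlier in cycling members and 1 (4.17%), Nanog, was later. Ly6a was detected at a median Ct of 14.8 ± 1.99 (SD, 18 cells) in cycling and 20.8 ± 4.79 (36 cells) in non-cycling members, a difference of -5.99 cycles. Pcna, the sliding clamp of DNA replication, stood at 14.7 ± 1.48 (19 cells) and 19.9 ± 3.76 (44 cells), a difference of -5.24 cycles. Hif1a, the oxygen-regulated transcription factor, differed by -3.60 cycles and Tgfb1, a cytokine of wound repair, by -3.08. Of the 3 reference genes, Actb and B2m differed the same way, at -3.50 and -3.56 cycles, and Rn18s by only -0.46. A difference in signal thus runs beside these values, and its size was unlike among the reference genes. The comparison with the 9 deep non-cycling members had too few cells in set A for a call. There the differences were -3.19 cycles for Ly6a, -2.80 for Pcna, -2.31 for Hif1a and -1.46 for Tgfb1. Beside them stood -1.19 for Actb, -0.35 for B2m and 0.49 for Rn18s. After each cell's mean of Actb and B2m was subtracted, Ly6a (-4.12 cycles) and Pcna (-1.96) were the only genes still called earlier, and 13 were called later. On that scale Rn18s stood 2.78 cycles later in cycling members.

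The cells overlapped by gene to different degrees. All 19 cycling members had Pcna before Ct 18, as did 10 of the 48 non-cycling ones, 8 of which were among the 9 with at least 30 assays. For Ly6a the counts before Ct 18 were 17 of 19 and 6 of 48, and for Thy1 17 of 19 and 5 of 48. Ly6a in non-cycling members spread from Ct 15.4 to 30.9, whereas in cycling members it ended at 19.8. The limit of Ct 18 was chosen after the values had been seen.

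**Figure D3:**
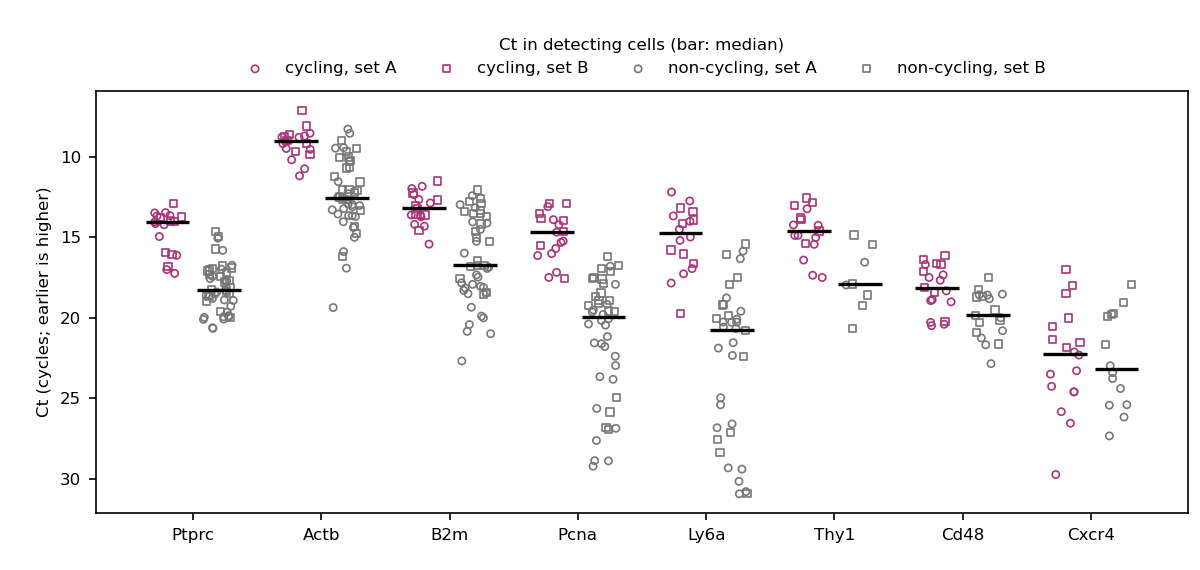
Ct (vertical axis, turned so that higher levels stand higher) of 8 genes in the members that detect them, by cycling class and set, with a bar at the median. Ly6a and Pcna in cycling members form 1 early group, against a wide spread to Ct 29 and beyond in non-cycling members, and Actb and B2m are earlier in cycling members as well.

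Members were about equally frequent in the 2 genotypes. They made up 35 of 93 kept WT cells (37.6%, 27.8 to 48.3%) and 32 of 77 kept EKO cells (41.6%, 30.4 to 53.4%), a difference of 3.92 points (-10.6 to 18.4). Counted over the 96 deposited cells of each genotype the shares were 36.5% in WT and 33.3% in EKO, a difference of -3.12 points. The members came from both sets, with 20 WT and 18 EKO cells in set A and 15 and 14 in set B.

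EKO members were deeper than WT members, and every genotype difference below stands beside that. The median was 30 assays in EKO and 21 in WT, or 28 against 21.5 within set A and 33 against 21 within B. At least 24 assays were detected by 24 of 32 EKO members and 14 of 35 WT members. Among those deeper members the difference of the medians turned to -4 assays.

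**Figure D4:**
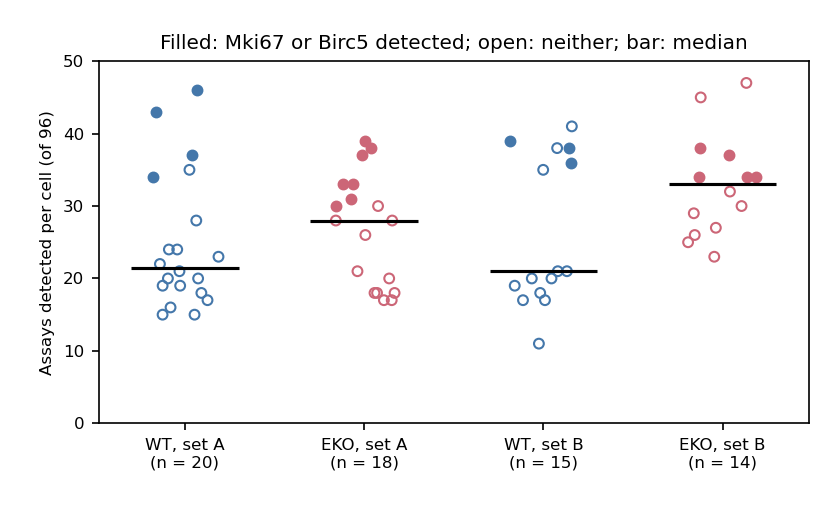
Assays detected per member, out of 96, by recipient genotype and set, with a bar at the median; filled points detect Mki67 or Birc5. All cycling members lie at 30 assays or more, and many WT members lie near 20.

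Cycling members were more frequent in EKO, within the counting error. Mki67 or Birc5 was detected in 12 of 32 EKO members (37.5%, 21.1 to 56.3%) and 7 of 35 WT members (20%, 8.44 to 36.9%). The difference was 17.5 points with an interval of -4.06 to 37.4, which spans 0, with 18.9 within set A and 15.7 within B. Every cycling member detected at least 30 assays, so depth moves with this difference. Among members with at least 24 assays, the share of cycling members differed by 0 points between the genotypes.

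Of the 88 assays outside the rule, 13 (14.8%) were called higher in EKO members and 2 (2.27%) lower. Cd48 was detected in 24 of 32 EKO members (75%, 56.6 to 88.5%) and 14 of 35 WT members (40%, 23.9 to 57.9%), a difference of 35 points (11.3 to 53.6). Pik3r1 had the same counts. Bcl2, which protects cells from programmed death, was detected in 13 of 32 (40.6%, 23.7 to 59.4%) and 2 of 35 (5.71%, 0.70 to 19.2%). Cd47, the surface signal that holds back engulfment by macrophages, was detected in 84.4 and 51.4%, and Notch1 in 56.2 and 28.6%. Thy1 stood at 50 and 25.7% and Notch2, a second receptor of the Notch family, at 68.8 and 45.7%. Of the lower pair, Fgfr1 stood at 18.8% of EKO against 42.9% of WT members, and Ccnd1, the cyclin that starts the cell cycle, in 1 of 32 and 7 of 35.

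**Figure D5:**
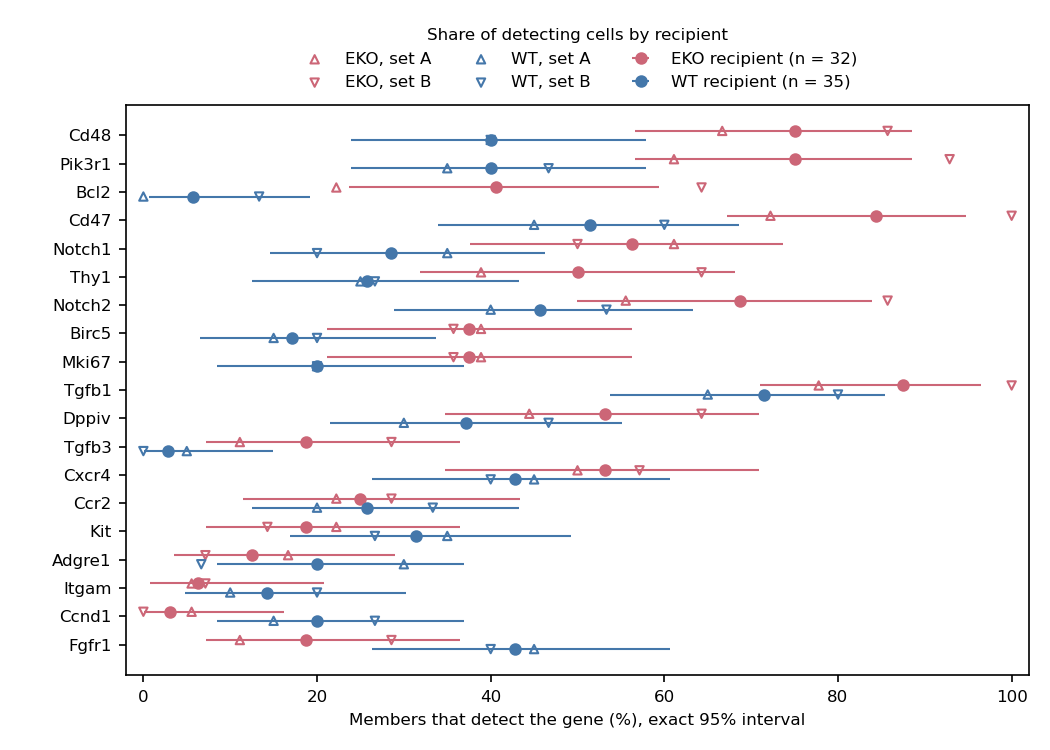
Share of members that detect each of 19 genes (horizontal axis, percent) in EKO (32 cells) and WT (35 cells) recipients, with exact 95% intervals; open triangles give set A and set B. The intervals of the 2 genotypes do not overlap for Bcl2 and overlap for the other 18 genes, narrowly for Cd48, Pik3r1 and Cd47.

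Few of these genotype differences were called again among members with at least 24 assays, where the WT members were the deeper. There 2 assays were called higher in EKO and 12 lower, and 1 of the 13 and both of the lower pair were called again. The gene that remained higher was Bcl2, at 39.9 points, and Dppiv turned to -14.9 points. Averaging the differences within terciles of depth, weighted by their cells, gave 6 higher and 6 lower. Of the 13, 3 were called again, as were both of the lower pair. The fixed markers that were not called over all members were Cxcr4, at 53.1% of EKO and 42.9% of WT members, and Ccr2, at 25 and 25.7%. Among EKO members 4 of 32 detected Adgre1 and 2 detected Itgam, against 7 and 5 of 35 WT members.

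Within the 2 classes, a split chosen after the values had been seen, the genotype differences ran in different directions. Among the 48 non-cycling members, 11 of 86 assays (12.8%) were called higher in EKO and 4 (4.65%) lower, with median depths of 26 assays in EKO and 20 in WT. Among the 19 cycling members, 4 assays (4.65%) were called higher in EKO and 15 (17.4%) lower, with median depths of 34 in EKO and 38 in WT. In each class, the side with the greater depth had more calls in its favour.

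Bcl2 and Kit had the largest genotype differences among cycling members. Bcl2 was detected in 9 of 12 EKO cycling members (75%, 42.8 to 94.5%), in 4 of 7 of set A and 5 of 5 of set B, at Ct 17.5 to 20.6. In WT cycling members it was detected in 1 of 7 (14.3%, 0.36 to 57.9%), a cell of set B at Ct 19.5. The difference was 60.7 points (14.2 to 80.6). Kit was detected in 6 of 7 WT cycling members (85.7%, 42.1 to 99.6%) at Ct 16.5 to 19.7, and in 4 of 12 EKO ones (33.3%, 9.92 to 65.1%) at Ct 19.99 to 21.9. The ranges of Kit Ct did not overlap, and the share difference was -52.4 points (-75.1 to -6.20), -57.1 in set A and -46.7 in set B. These are 19 cells of 2 samples, and the WT side of set B holds 3 of them. The WT cycling members were the deeper, with a median of 38 assays against 34 in EKO. The part of depth in either difference was not tested.

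By level, 8 of 29 compared assays (27.6%) were earlier in EKO members and 1 (3.45%), Ccr2, was later. Ly6a was detected at a median Ct of 16.1 ± 5.01 (24 cells) in EKO and 20.1 ± 5.15 (30 cells) in WT members, a difference of -3.97 cycles that is smaller than the SD. Its share ran the other way, at 75% of EKO and 85.7% of WT members. Nfkb1, a transcription factor of inflammation, differed by -2.13 cycles, Pcna by -1.85 and Cd47 by -1.50. Within the classes Pcna differed by -0.87 cycles in cycling and -0.70 in non-cycling members. Ccr2 was later in EKO by 1.22 cycles (18.6 ± 2.18, 8 cells, against 17.3 ± 2.19, 9 cells) and turned to -0.28 after subtraction of Actb and B2m. Within the classes it was 4.06 cycles later in EKO among cycling members (5 cells of each genotype) and stood at -1.41 among non-cycling ones (3 EKO and 4 WT cells). Actb and B2m were themselves earlier in EKO, by -1.86 and -2.86 cycles, and Rn18s by -0.40.

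The connective tissue genes Col3a1 and Col1a2 were detected at late Ct. Col3a1, a fibrillar collagen, was detected in 33 of 67 members (49.3%) and Col1a2, the partner chain of Col1a1, in 24 (35.8%), against all 31 high-collagen cells for both. In members their median Ct was 20.1 ± 1.65 and 21.2 ± 0.93. The assay for Col3a1 gave a Ct in 10 of the 22 cells with fewer than 10 assays, a share close to that in members, at a median of 19.7 ± 3.21. Col1a2 gave one in 4 of the 22, at 21.3 ± 0.93. The kept cells that did not detect Ptprc detected Col3a1 in 51.5% and Col1a2 in 47.1%, so neither share in members was above that background. A median of 2 of the 10 mesenchymal genes was detected per member, with 4 in cycling and 1 in non-cycling members. By genotype 2 of the 9 outside the rule were called higher in EKO (Thy1 and Dppiv), beside 14.8% of all 88 assays. Their median was 6.25 points for the 9, beside 2.99 over all 88. Acta2, the smooth muscle actin of contractile cells, was detected in 2 EKO and 7 WT members.

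Endothelial and epithelial genes were rare. Tie1 and Tek, receptors of the endothelium, were detected in 0 of 67 members, which allows a share of up to 4.48%. Pecam1, which platelets and leukocytes also carry, was detected in 19 members (28.4%). Of the 7 endothelial genes outside the rule, 0 were called over all members by class or by genotype. Over all assays outside the rules, 27.9% were called higher and 3.49% lower by class, and 14.8% and 2.27% by genotype. Eng, an accessory receptor for TGF-beta, was detected in 9 members, Nos3 in 2 and Efnb2 in 1. Trp63, the transcription factor of basal skin epithelium and the only epithelial gene measured, was detected in 2 members. Against the 9 deep non-cycling members, Eng (-17.5 points) and Trp63 (-22.2 points) were called lower in cycling ones, where set A gave 1 of its 2 deep non-cycling cells for each.

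The remaining lists held few genotype differences. Of the 12 wound effector genes 1 was called higher in EKO, Tgfb1 (87.5 against 71.4%), with a median of 4.96 points, beside 14.8% called higher and 2.99 points over all 88 assays. Timp1, an inhibitor of matrix proteases, was detected in 4 EKO and 0 WT members, and Ccl2 in 5 and 10. Of the 6 adhesion genes outside the rule 0 were called: Icam1, a ligand for leukocyte integrins, was detected in 46.9 and 34.3%, Vcam1 in 18.8 and 5.71%, and Itgb3 in 34.4 and 20%. Of the 3 survival genes, Bcl2 and Birc5 were called higher, with a median of 20.4 points beside the same values, and Tert, the catalytic subunit of telomerase, was detected in 1 member of each genotype. Cd55, which limits complement, was detected in 3 EKO and 7 WT members.

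The assays that most members detected included some that cells of low yield detected too. Hif1a was detected in 95.5% of members, Pcna in 94.03%, Cd44, the hyaluronan receptor, in 92.5% and Nfkb1 in 88.1%. In the 22 cells under 10 assays these stood at 2, 3, 1 and 0 cells. The Cxcl12 assay Mm00445552_m1 was detected in all 67 members at a median Ct of 17.97 ± 0.58, and also in all 22 of those cells. Sox2, a pluripotency factor, was detected in 88.1% of members and 19 of the 22. Nanog, another such factor, was detected in 91.04% of members and 1 of the 22, at Ct 18.2 to 37.9. The other Cxcl12 assay, Mm00457276_m1, was detected in 0 of 67 members, which allows a share of up to 4.48%, and in 12 of the 31 high-collagen cells.

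Cxcr4 differed between the sets by more cycles than any other of the 39 assays compared. Its median Ct was 24.5 ± 1.90 (18 cells, 22.1 to 29.8) in set A and 19.9 ± 1.54 (14 cells, 17 to 21.9) in set B, and the ranges did not overlap. The difference was 4.64 cycles. Of these 39, 34 were later in set A, with a median of 0.68 cycles, and the next largest difference was 2.81, for B2m. The shares of Cxcr4-detecting members did not move with its Ct: they were 18 of 38 in set A and 14 of 29 in set B.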

How the data were processed

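Single cells were read by microfluidic PCR with 96 TaqMan assays for 95 genes. The authors deposited 1 table of values for all 192 cells, described as not normalized, with no unit named; the values were read as raw Ct, with 40 as not detected. The instrument software and threshold are not stated in the sources used. No column was left unused, and 0 pairs of members had identical values.

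Cells with at least 10 assays below Ct 40 were kept. Members and gene lists were chosen with earlier results of these data known. Shares used exact Clopper-Pearson and differences Newcombe 95% intervals; a share of 0 was given the limit of 3 counts. A share was called at 15 points and a level at 1 cycle, with the same sign in sets A and B; levels needed 8 detecting cells in each arm and 3 in each arm of a set, with reference genes left out. Genes named were the fixed markers, all measured leukocyte, macrophage, progenitor and cell cycle genes, up to 10 each way by share and 4 by level, the 10 most often detected, and up to 3 examples per other list. Singled-out genes outside this rule (Angpt1, Mmp9, Pdgfra, Ang, Col3a1, Col1a2, Pecam1, Tgfbr1 and Pdgfb) were chosen after their values were seen, and 1 gene that met the rule is not reported here. Of the 96 names, 88 matched a RefSeq symbol (GRCm38.p6), 5 a synonym, and 3 (Rn18s, Fox03, Dppiv) matched neither. Alternatives were other limits for Ct, depth, Col1a1 and endothelial genes, each set alone, terciles of depth, and 4 scales of level. Subsets by cycling class or with 30 assays were added after seeing the data. Functions were tested on simulated data. Python 3.11.15, NumPy 2.4.6, pandas 2.3.3, SciPy 1.17.1 and matplotlib 3.10.9 were used.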

Additional observations from a re-analysis of the deposited data

Results flagged for a closer look

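Differences of at least 15 points in opposite directions were listed; none was tested, since cells of 1 sample per genotype allow no test. Ang, which encodes angiogenin, was detected more often in cycling members in set A (17.2 points) and less often in set B (-32.1 points). Col1a2 was detected less often in EKO members in set A (-27.8 points) and more often in set B (16.2 points).

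3 assays had opposite genotype differences in cycling and non-cycling members, each with the same sign in both sets. Ang stood at -29.8 points, EKO minus WT, in cycling members and 23.6 in non-cycling ones. Icam1 stood at -27.4 and 18.6 points, and Vcam1, its counterpart on activated endothelium and stroma, at -20.2 and 25 points. The depths ran in the same directions, since cycling members had a median depth of 34 (EKO) and 38 (WT), and non-cycling ones of 26 and 20, and their part in these differences was not tested.

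The 22 cells that detected fewer than 10 assays entered no comparison, yet the Cxcl12 assay Mm00445552_m1 was detected in 100% and Sox2 in 86.4% of them. A count of 0 would allow 13.6%.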

How the results depend on the processing

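Over the called genes, 340 of 420 values under an alternative stayed within the spread, 67 moved and 13 turned sign. Of the 340, 23 could not change, since a split on Mki67 alone is the main split. Another 23 came from asking for both Mki67 and Birc5, which dropped 1 cell. The limit of fewer than 2 endothelial genes gave 37 and dropped 2 members. With at least 24 assays, 22 values stayed, 14 moved and 1 turned sign. Every alternative for the share of members and that of cycling members lay within the interval of the difference, but not all kept the direction. The share of members stood at -3.12 points over all deposited cells and at 3.51 to 11.9 points otherwise, and that of cycling members at 0 points with at least 24 assays and at 14.9 to 21.1 points otherwise. Depth moved most. With at least 24 assays, the calls for EKO minus WT were 2 higher and 12 lower, those for cycling members 7 lower, the depth difference was -4 assays and Dppiv stood at -14.9 points. Terciles of depth gave 6 higher and 6 lower by genotype (Dppiv -10.4, Notch2 -0.71 points), and 10 higher and 7 lower by class (Ccr2 -0.95, Ly6a -6.67 points). Against non-cycling members with 30 assays there were 7 higher (Ccr2 -14.0, Kit -2.92, Ly6a -5.26 points).

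Members without any Col1a1 gave 1 lower by genotype and 5 by class. Set A alone gave 5 lower by genotype; set B alone gave 26 higher by genotype and 7 lower by class. Non-cycling members alone gave 4 lower, and cycling members alone 4 higher and 15 lower (Dppiv -8.33 points). By level, subtracting Actb and B2m gave 4 later by genotype (Ccr2 -0.28 cycles), and 2 earlier and 13 later by class (Cd44 1.38, Nfkb1 1.21 cycles). Subtracting each cell's median gave 5 earlier by genotype, and 6 earlier and 9 later by class. With failed reactions at 40 there were 16 earlier by genotype (Cd44 0.27 cycles), and 17 earlier and 0 later by class; that setting adds the shares to the levels. For the other settings the cause was not tested.

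No paired analysis was possible because each genotype is 1 sample and the cell numbers of the 2 genotypes do not overlap. A share of 50% among the 32 EKO members has an interval of 31.9 to 68.1%, which limits what could be seen.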

Other observations

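Tgfbr1, a receptor for TGF-beta, and Pdgfb, a ligand that recruits pericytes, were among the 7 genes more often detected in cycling members than in deep non-cycling ones. Tgfbr1 was detected in 11 of 19 cycling and 2 of the 9 deep non-cycling members, and Pdgfb in 6 of 19 and 0 of 9. Both were singled out after their values had been seen.

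Angpt1, a ligand of Tek, was detected in 2 members, both non-cycling and from set A, at Ct 5.51 and 9.85. Actb, at a median Ct of 11.4 in members, was later than that, and Rn18s stood at a median of 5.82. The Angpt1 assay also gave a Ct of 5.90 in 1 of the 22 cells with fewer than 10 assays. Whether such early values reflect transcript was not tested. Mmp9, a matrix protease, was detected in 3 members, the earliest at Ct 9.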
